A study of Mus musculus with 4 samples.

Results

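Smooth muscle genes were examined in the prostates of TRAMP and C57BL/6 mice given olive oil or a tocopherol mixture. The set comprised 10 genes of the smooth muscle contractile apparatus, Myh11, Myl9, Mylk, Acta2, Actg2, Lmod1, Tagln, Cnn1, Smtn and Des, and its members were the probes whose gene name on the array equalled one of these symbols. Of the 10 genes, 9 were measured, by 16 of the 41174 probes and as 9 of the 27974 genes on the array. Myl9 was not analysed here, because no probe was found under that name.

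RNA from whole prostate was hybridised to Agilent mouse expression arrays in 1 colour, Cy3. All animals were males 8 weeks of age. The 4 groups were C57BL/6 mice given olive oil, C57BL/6 mice given 600 mg/kg γ-TmT (a mixture of tocopherols rich in γ-tocopherol, a form of vitamin E), TRAMP mice given olive oil and TRAMP mice given 600 mg/kg γ-TmT. Every mouse ate an AIN-76A diet, was fasted overnight, was dosed by oral gavage and was killed 12 hours later. TRAMP mice carry the SV40 early genes under a promoter of rat probasin, a gene of the prostate epithelium and not of smooth muscle. The labels name no background strain for the TRAMP mice. Each group had 3 mice and 1 array, and the labels do not say whether an array held RNA of 1 mouse or of a pool. The difference between 2 arrays therefore had no replicate check and no test.

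Smooth muscle contracts when calcium and calmodulin activate myosin light chain kinase (Mylk), which phosphorylates the regulatory light chain and lets the myosin heavy chain (Myh11) pull on actin filaments (Acta2, Actg2). Leiomodin (Lmod1) starts actin filaments, transgelin (Tagln), calponin (Cnn1) and smoothelin (Smtn) bind them, and desmin (Des) forms the intermediate filaments that tie the cell together. Serum response factor with its partner myocardin switches on many of these genes, and in the prostate such muscle sheathes the ducts and expels their fluid.

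A level below is log2 of the intensity minus log2 of that array's 75th percentile. Differences are between such levels, and ± after a difference of 2 arrays is the scanner software's spot error, or for a probe printed 10 times the standard error over spots. Neither covers the variation between mice. The 75th percentiles were 161, 118, 139 and 71.3 in the order C57BL/6 oil, C57BL/6 TmT, TRAMP oil and TRAMP TmT. All 9 genes were well above background on all 4 arrays and none was saturated. The TRAMP oil array had the largest spread between repeated spots, with a median SD of 0.241 log2 units over 245 probes printed 10 times, against 0.134 to 0.163 on the other arrays. The software had also divided the arrays by a smooth surface to even out brightness across the slide (multiplicative detrending). That surface ran from 0.257 to 1.44 on TRAMP oil, and the step was not applied to the TRAMP TmT array.

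Each probe is a DNA oligonucleotide of 60 bases. The probes on which the results turn are printed here so that it is clear which stretch of each transcript was read. The first set is shown whole, 5′ to 3′, with no base marked.
Mylk, brightest probe: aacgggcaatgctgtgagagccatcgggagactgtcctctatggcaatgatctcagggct
Mylk, second probe: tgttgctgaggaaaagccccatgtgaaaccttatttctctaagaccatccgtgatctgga
Acta2, probe across a junction: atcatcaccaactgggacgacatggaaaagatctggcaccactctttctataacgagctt
Tagln, second probe: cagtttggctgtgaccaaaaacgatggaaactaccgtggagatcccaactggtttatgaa
Smtn: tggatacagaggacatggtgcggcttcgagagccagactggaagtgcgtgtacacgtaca

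Of the other probes only the first 30 bases are given.
Acta2, brightest probe: acactgacttcacagctagagtgactattt
Acta2, probe printed 10 times: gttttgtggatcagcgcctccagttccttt
Acta2, last probe: gaagccaagggtgtcccccaaaaatgcagt
Tagln, brightest probe: ctttgaaggagacccagcccagcctctaca
Cnn1: acacacgcattttggttttgcagtgactgg
Des: cccgggatggagaggttgtcagcgaggcta
Myh11: accaggagaggaaacgaggcttcatttgtt
Lmod1: agcagacattttcttcacatcacctgctgc

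In the software's processed values, with the brightest probe for each gene, the genes did not shift as a block. In TRAMP prostate after oil, Acta2, Cnn1, Des and Mylk stood 1.75-fold to 2.16-fold below C57BL/6, Myh11 was level and Actg2 was 1.52-fold above. After TmT the line differences of Acta2, Cnn1, Des and Mylk were smaller, from -0.0048 for Acta2 to 0.33 for Cnn1 on the log2 scale. The TRAMP oil array held the lowest level for 6 of the 9 genes, and for Myh11 the gap to the next array was only 0.0033. Across 16961 genes above background on all arrays, TRAMP oil was the lowest array for 32.7%. The signs depended in part on the detrending. Before it, 7 of the 9 genes were below 0 for line after oil, and all 9 were above 0 for line after TmT and for TmT in TRAMP. For Acta2 the sign after oil also depended on the probe, as given below.

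**Figure D1:**
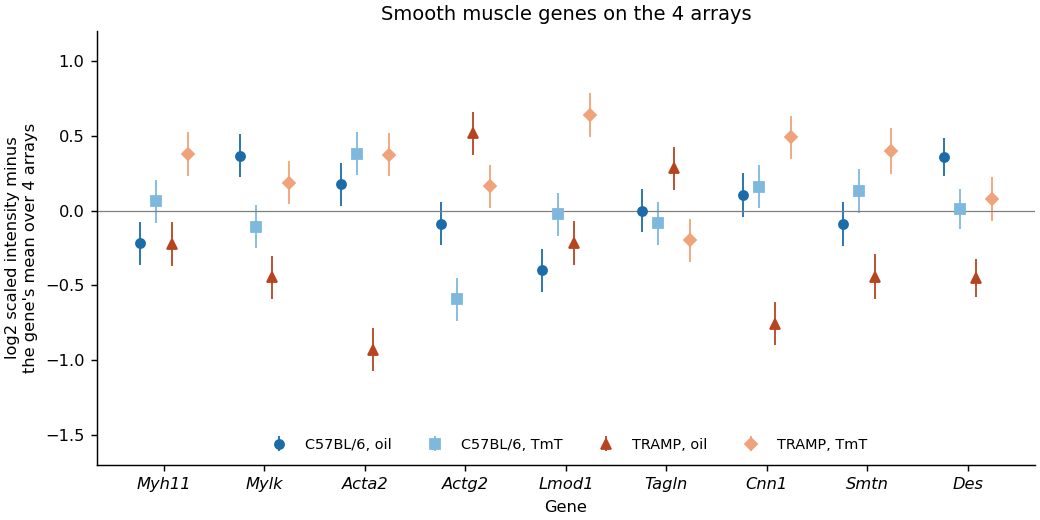
Level of each smooth muscle gene on each of the 4 arrays (y axis, the level minus that gene's mean over the 4 arrays, log2; brightest probe). Each point is 1 array and bars are the scanner's spot error, or for Des the SD over its repeated spots; the TRAMP oil point is the lowest for 6 of 9 genes and the highest for Actg2 and Tagln.

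Among the motor proteins, Myh11, the smooth muscle myosin heavy chain, was read on mm9 at chr16:14195223-14198147 on the minus strand. Its level was 5.71 in C57BL/6 oil, 6.00 in C57BL/6 TmT, 5.71 in TRAMP oil and 6.31 in TRAMP TmT. TRAMP and C57BL/6 were thus equal after oil (-0.0033 ± 0.20), and the TmT arrays were the higher ones in both lines, by 0.28 ± 0.20 in C57BL/6 and 0.60 ± 0.20 in TRAMP.

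Mylk, the kinase that starts contraction, was read at chr16:34995162-34995221 on the plus strand. Its level was 3.01 in C57BL/6 oil, 2.54 in C57BL/6 TmT, 2.20 in TRAMP oil and 2.83 in TRAMP TmT, so the lowest and the highest levels were both on oil arrays. TRAMP minus C57BL/6 was -0.81 ± 0.20 after oil and 0.29 ± 0.20 after TmT. The TmT difference ran in opposite directions, -0.48 ± 0.20 in C57BL/6 and 0.63 ± 0.20 in TRAMP. The second probe, chr16:34996839-34996898, had the same signs with smaller sizes: -0.33 between the lines after oil, 0.38 after TmT, -0.40 for TmT in C57BL/6 and 0.30 for TmT in TRAMP. The remaining Mylk probe, at chr16:34954118-34954177, was dim, with intensities of 7.55 to 11.8, was designed on a different transcript record, and differed from both: its TmT difference was 1.09 in C57BL/6 and 1.60 in TRAMP.

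Acta2, smooth muscle α-actin and the usual marker of these cells, had its brightest probe at chr19:34315697-34315756 on the minus strand. The intensities of that probe were 11527, 9688, 4609 and 5856 in the order of arrays given above, and the levels were 6.16, 6.37, 5.05 and 6.36. One array, TRAMP oil, stood apart from the other 3, which lay between 6.16 and 6.37. This probe was printed as 1 spot, in row 352 and column 1, at the side of the array. On TRAMP oil the column 1 spot of the Acta2 probe printed 10 times read 1440, against a median of 2878 for that probe. The part of this position in the value was not tested. TRAMP was 2.16-fold below C57BL/6 after oil, a log2 difference of -1.11 ± 0.20, and equal to it after TmT (-0.0048 ± 0.20). TmT against oil was 0.20 ± 0.20 in C57BL/6 and 1.31 ± 0.20 in TRAMP, a 2.47-fold difference. With the mean over all probes of the gene in place of the brightest, the line difference after oil was -0.35 and the TmT difference in TRAMP 0.41.

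The 5 Acta2 probes, taken along the gene from its 5′ side, gave different line differences after oil. The first, at chr19:34327946-34328005, was dim, with intensities of 10.1 to 34.8, and stood at 0.95 ± 0.23 above C57BL/6. The second, across a junction at chr19:34322995-34326249 and 1756 bases on, was at 0.09 ± 0.20. The third, printed 10 times at chr19:34316060-34316119, was at -0.56 ± 0.24. The fourth was the brightest probe, and the last, at chr19:34315196-34315254, was at -1.10 ± 0.20. The sign of the Acta2 difference after oil thus depended on the probe: the 3 probes on the 3′ side were below 0 and the 2 on the 5′ side above it. For TmT in TRAMP the same 5 probes, from 5′ to 3′, gave -0.21, 0.06, 0.65, 1.31 and 0.24. The first and last were designed on cDNA records other than the reference transcript of the other 3. The cause of this order was not tested.

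**Figure D2:**
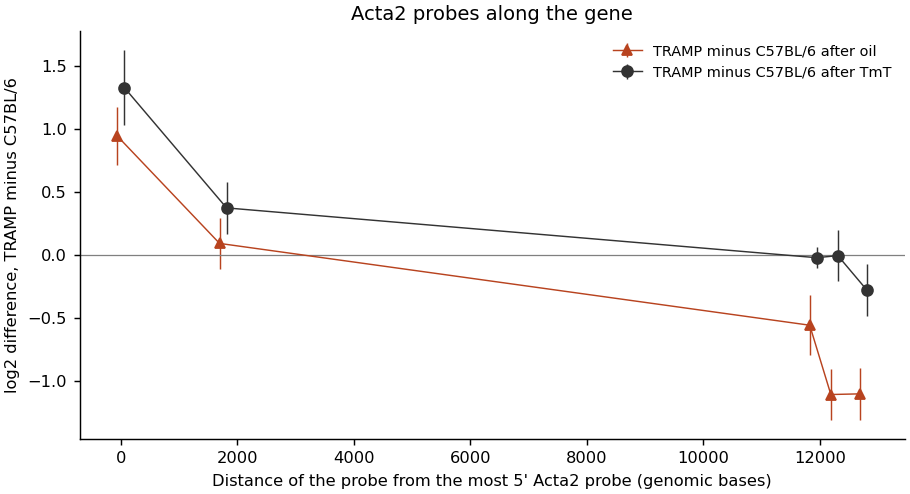
Line difference (TRAMP minus C57BL/6, log2, y axis) of the 5 Acta2 probes by their distance in genomic bases from the first probe (x axis; the series are offset slightly so that bars can be seen), after oil and after TmT; bars are spot errors, or the standard error over spots for the probe printed 10 times. After oil the values go from 0.95 at the 5′ side to -1.10 at the 3′ side, and after TmT from 1.33 to -0.28. Those end probes were designed on other cDNA records. The probes between them, on the reference transcript, were at 0.09, -0.56 and -1.11 after oil. After TmT they were at 0.37, -0.02 and -0.0048.

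The Acta2 probe printed 10 times shows how far spots of 1 probe differed on 1 array. On TRAMP oil its 9 usable spots ran from 954 to 4630 with a median of 2878, an SD of 0.70 log2 units. On C57BL/6 oil they ran from 3419 to 4972 (SD 0.15), on C57BL/6 TmT from 3380 to 3898 (SD 0.06) and on TRAMP TmT from 1381 to 2673 (SD 0.26). The spread was thus widest on TRAMP oil, where the faintest spot lay past row 500 of 532, near the slide edge. Among the spots within row 500 the lowest on that array was 1440, and the SD was 0.48. That lowest spot lay in row 125 and column 1, the column of the brightest Acta2 probe. The same spot read 4972 on C57BL/6 oil, 3476 on C57BL/6 TmT and 2299 on TRAMP TmT.

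**Figure D3:**
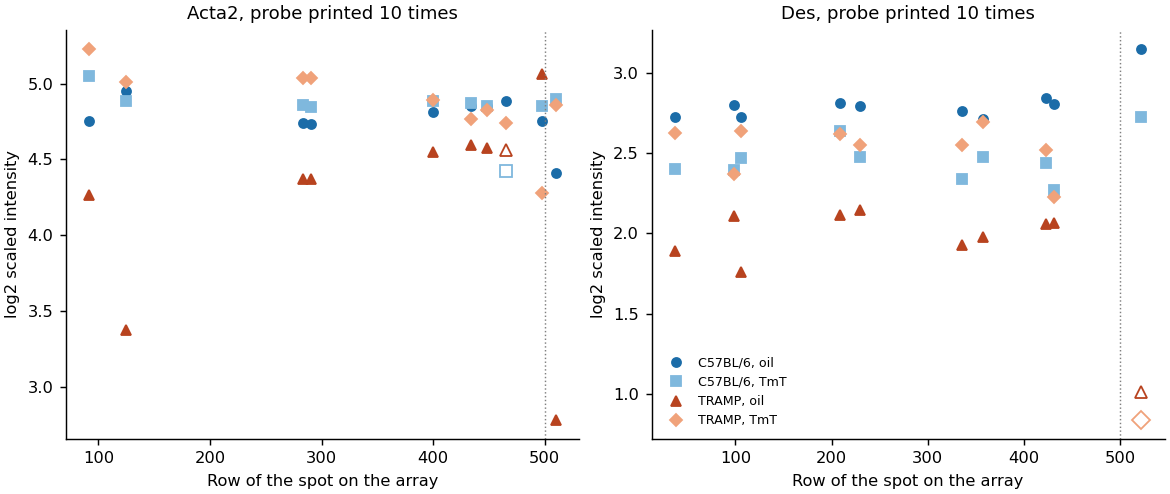
Level (y axis, log2 intensity minus log2 of the array's 75th percentile) of each repeated spot of the Acta2 and Des probes printed 10 times, by the row of the spot (x axis), for the 4 arrays. Open symbols are spots the software marked as outliers and the dotted line is row 500; used Acta2 spots on TRAMP oil spread over an SD of 0.70 log2 units and used Des spots over 0.13.

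Actg2, the γ-actin of visceral smooth muscle, had a level of 2.89 in C57BL/6 oil, 2.39 in C57BL/6 TmT, 3.50 in TRAMP oil and 3.14 in TRAMP TmT. Both TRAMP arrays were above both C57BL/6 arrays, by 0.61 ± 0.20 after oil and 0.76 ± 0.20 after TmT. It was the only member with a line difference beyond 0.5 in the same direction under both treatments, and both TmT arrays were below their oil arrays, at -0.51 ± 0.20 in C57BL/6 and -0.36 ± 0.20 in TRAMP. Before multiplicative detrending the TmT difference in TRAMP was 0.11, so its sign turned, while the line differences kept theirs (0.38 and 0.91).

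Lmod1, which starts actin filaments in smooth muscle, was read at chr1:137263311-137263369 on the plus strand. Its level was 2.77 in C57BL/6 oil, 3.15 in C57BL/6 TmT, 2.96 in TRAMP oil and 3.81 in TRAMP TmT. TRAMP TmT was the highest array, and TmT against oil was 0.37 ± 0.20 in C57BL/6 and 0.86 ± 0.20 in TRAMP. TRAMP was above C57BL/6 by 0.18 ± 0.20 after oil and 0.66 ± 0.20 after TmT.

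Of the actin-binding proteins, Cnn1, calponin, which slows the myosin motor, followed a pattern close to that of the brightest Acta2 probe. At chr9:21913058-21913117 on the plus strand its level was 4.88 in C57BL/6 oil, 4.93 in C57BL/6 TmT, 4.02 in TRAMP oil and 5.27 in TRAMP TmT. The difference between the lines was -0.86 ± 0.20 after oil and 0.33 ± 0.20 after TmT. TmT against oil was 0.06 ± 0.20 in C57BL/6 and 1.25 ± 0.20 in TRAMP, 2.37-fold.

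Tagln, transgelin or SM22, an early marker of smooth muscle, had its brightest probe at chr9:45738097-45738156 on the minus strand. Its level was 6.81 in C57BL/6 oil, 6.73 in C57BL/6 TmT, 7.10 in TRAMP oil and 6.61 in TRAMP TmT. In these values Tagln was highest on the TRAMP oil array, where Acta2 and Cnn1 were lowest. The spot lay in row 528, at the slide edge, and on TRAMP oil the detrending surface there was 0.43, so an intensity of 8241 had become 18991. Before detrending, the line difference after oil was -0.49 in place of 0.28 ± 0.20, and TmT against oil in TRAMP was 0.71 in place of -0.48 ± 0.20. Both directions for Tagln on that array thus turned with this step. The second Tagln probe, at chr9:45738916-45738975, carried an outlier mark on TRAMP oil and gave no usable value there. After TmT it differed between the lines by -0.11, the same as the brightest probe.

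Smtn, smoothelin, found in contractile smooth muscle, was read at chr11:3420834-3420893 on the minus strand and was dim, with intensities of 53.2, 45.3, 36.0 and 33.1. Its levels were -1.60 in C57BL/6 oil, -1.37 in C57BL/6 TmT, -1.95 in TRAMP oil and -1.11 in TRAMP TmT. The lowest and highest arrays were the TRAMP ones, with TmT against oil at 0.84 ± 0.22 in TRAMP and 0.22 ± 0.21 in C57BL/6.

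Des, desmin, the muscle intermediate filament, was read by a probe printed 10 times at chr1:75363404-75363629 on the plus strand. Its level was 2.81 in C57BL/6 oil, 2.46 in C57BL/6 TmT, 2.01 in TRAMP oil and 2.53 in TRAMP TmT, and the SD over spots was 0.13 to 0.15 on each array. The TRAMP oil array was the low one and C57BL/6 oil the high one. TRAMP minus C57BL/6 was -0.81 ± 0.06 after oil and 0.07 ± 0.06 after TmT, and TmT against oil was -0.35 ± 0.06 in C57BL/6 and 0.53 ± 0.06 in TRAMP. Desmin is also made by skeletal muscle. The summed level of 10 skeletal muscle genes was 9.29 in C57BL/6 oil, 9.26 in C57BL/6 TmT, 8.53 in TRAMP oil and 9.36 in TRAMP TmT, and its part in the Des values was not tested.

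The first comparison, TRAMP against C57BL/6 after oil, had 6 genes below 0 and 3 above, with a median of -0.35 against -0.07 over 18920 genes. By at least 2-fold, 1 of 9 genes was lower (Acta2) and 0 were higher, where 7.84% of all genes tested were lower and 7.74% higher. The SD over the 9 differences was 0.61, and that over all genes 0.79. Acta2 was past 2-fold neither before detrending (-0.96) nor after quantile normalization (-0.88). At 3-fold, 0 of 9 were lower, where 2.35% of genes were. After TmT the same comparison had 7 genes above 0 and 2 below, with a median of 0.29 against 0.01 over all genes. No member was 2-fold higher or lower there, where 8.45% and 6.09% of genes were. The spread was smaller, an SD of 0.29, and the genes ran from Tagln at -0.11 to Actg2 at 0.76.

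TmT against oil in C57BL/6 had 5 genes above 0 and 4 below, with a median of 0.06 against 0.02 over all genes. None was 2-fold higher or lower, where 3.12% and 2.63% of genes were. In TRAMP, 7 genes were above 0 and 2 below, with a median of 0.63 against 0.10 over all genes. Acta2 and Cnn1 were at least 2-fold higher and 0 members were lower, where 8.66% of genes were higher and 4.86% lower. At 3-fold, 0 of 9 were higher, where 2.24% of genes were. With normexp background correction Acta2 was at 0.69 and Cnn1 at 0.66 when spots of extreme local background were left out, and at -4.44 and -3.62 when these 27 spots were kept. Before detrending all 9 genes were above 0 in this comparison, and likewise in TRAMP against C57BL/6 after TmT, while the medians of all genes were then 0.05 and 0.01. The comparisons share arrays: the TRAMP oil array enters both the line difference after oil and the TmT difference in TRAMP, and a low value on it lowers the first and raises the second.

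**Figure D4:**
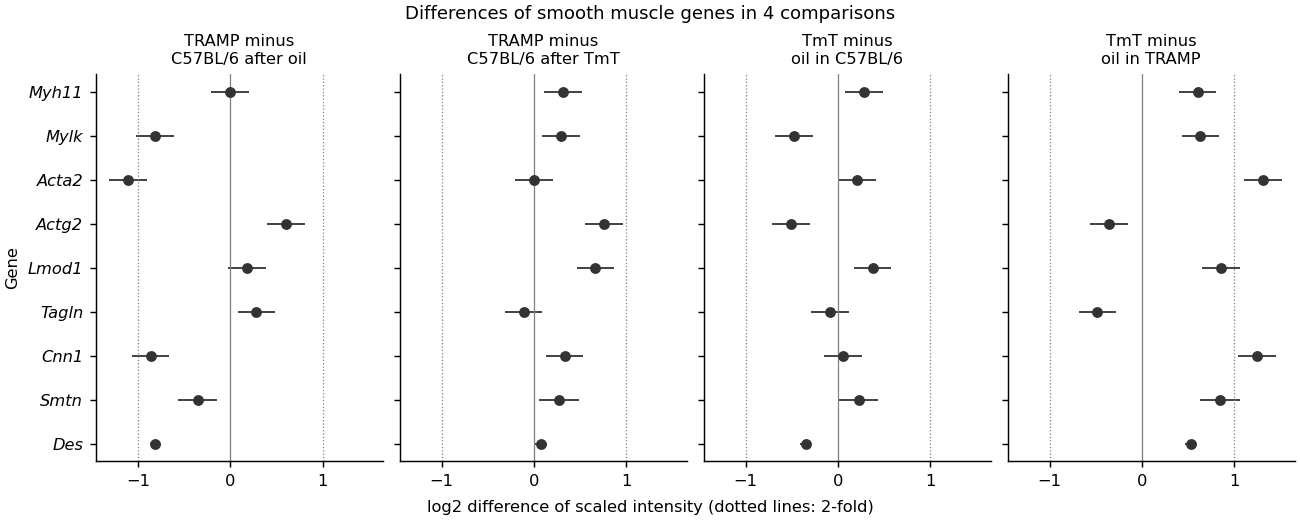
Difference of each smooth muscle gene in the 4 comparisons (log2, points; bars are spot errors, or the standard error over spots for Des), with 2-fold limits as reference lines. Acta2 at -1.11 after oil, and Acta2 at 1.31 and Cnn1 at 1.25 for TmT in TRAMP, are the values past 2-fold.

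The TmT difference in TRAMP minus that in C57BL/6 was 1.19 for Cnn1, 1.11 for Mylk, 1.10 for Acta2 and 0.88 for Des. It was 0.62 for Smtn, 0.48 for Lmod1, 0.32 for Myh11 and 0.15 for Actg2, and Tagln alone was below 0, at -0.40. Over 16961 genes the median of this quantity was 0.06 with an SD of 0.81. With 1 array per group it could not be tested.

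An additive fit of line and treatment over 19922 genes (limma, Benjamini-Hochberg adjustment), in which each line and each treatment had 2 arrays and the interaction served as error, called 0 of the 9 genes for line, where 0.0201% of all genes were called. It called 0 of 9 for TmT, where 0% were. At an unadjusted p under 0.05 it also had 0 of 9 genes for either term, against 15.1% and 6.25% of all genes. For line, limma's adjusted p ran from 0.387 for Actg2 (0.68 ± 0.32, estimate ± SE) to 0.969 for Smtn (-0.04 ± 0.35). Acta2 was at -0.56 ± 0.40 with a limma adjusted p of 0.552. For TmT, limma's adjusted p ran from 0.779 for Acta2 (0.75 ± 0.40) and Lmod1 (0.62 ± 0.34) to 0.975 for Mylk (0.08 ± 0.40). The wide errors of Acta2, Cnn1 and Mylk contain their unequal TmT differences in the 2 lines. In simulated data of the same size this fit recovered 0% of genes changed between the lines by 1 log2 unit, 24% of those changed by 2 and 90% of those changed by 3.

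The genes that regulate or work with this apparatus were followed in 5 lists with 63 genes on the array. After oil, 3 of 57 tested were at least 2-fold higher in TRAMP and 8 lower, where 7.74% and 7.84% of all genes were. After TmT 5 of 56 were higher and 2 lower, where 8.45% and 6.09% of all genes were. TmT against oil had 2 higher and 2 lower of 56 in C57BL/6, where 3.12% and 2.63% of all genes were, and 4 higher and 0 lower of 57 in TRAMP, where 8.66% and 4.86% were. The limma fit called 0 of 58 for line or TmT, and at an unadjusted p under 0.05 it had 4 higher and 3 lower for line and 0 for TmT, against 15.1% and 6.25% of all genes in either direction.

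Among regulators of transcription, Srf, the DNA-binding partner of myocardin, was at 2.28, 3.45, 1.75 and 1.95 in the order of arrays above, highest in C57BL/6 TmT. Mkl1, an actin-sensing coactivator of Srf, was higher in TRAMP by 1.21 after oil and 1.32 after TmT. The list's medians were -0.28 and 0.07 for line and -0.06 and 0.32 for TmT, C57BL/6 before TRAMP. Of other contractile genes, Tpm1, a tropomyosin that lies along actin, was at 7.10, 6.91, 6.21 and 7.36, again lowest on TRAMP oil, and TmT against oil in TRAMP was 1.15 ± 0.20. The medians of these 19 genes were between -0.24 and 0.16 in the 4 comparisons.

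Receptors and channels that excite smooth muscle included Adra1a, the α1A-adrenergic receptor, which drives prostate contraction. Adra1a was higher in TRAMP by 1.63 ± 0.21 after oil and 1.11 ± 0.21 after TmT. Adra1b, a related receptor, was at -1.30 ± 0.25 and 0.79 ± 0.24 in the same comparisons, and Ednrb, an endothelin receptor, was lower in both, at -1.18 and -1.03. The list of 17 had medians of -0.25 and 0.28 for line after oil and after TmT. In the list of relaxation genes, with medians of -0.48 and 0.24, Gucy1a3, a subunit of the nitric oxide receptor, was at -1.35 ± 0.21 between the lines after oil and 1.53 ± 0.21 for TmT in TRAMP. Gucy1a3 was the highest gene tested in that list for TmT in TRAMP, where the list's median was 0.09. The lowest there was Prkg1 at -0.85, and Gucy1b3 was at -0.45. Related actins, myosins and cytoskeletal genes, not limited to other cells, had a median of -0.71 after oil, below that of the smooth muscle genes. Among them Acta1, skeletal actin, was lower in TRAMP, at -1.07 after oil and -1.26 after TmT, and so was Mylk2, the skeletal kinase, at -1.08 and -1.67. Lmod2, a muscle leiomodin, was higher after TmT in both lines, by 1.06 ± 0.23 in C57BL/6 and 1.03 ± 0.29 in TRAMP. It was dim, with levels from -3.58 to -1.93.

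In whole tissue, fewer muscle cells and less RNA per cell cannot be told apart. The summed level of the 9 smooth muscle genes was 8.21 in C57BL/6 oil, 8.27 in C57BL/6 TmT, 8.06 in TRAMP oil and 8.38 in TRAMP TmT, as a sum of linear values in which bright probes weigh most. Markers of most other cell types were also low on the TRAMP oil array. The line difference after oil had a median of -0.64 over 10 fibroblast genes, -0.96 over 8 endothelial genes, -0.86 over 5 basal and -0.50 over 6 luminal epithelial genes, -0.71 over 5 nerve genes, -0.35 over 7 pericyte genes, -0.65 over 10 skeletal muscle genes and -0.25 over 6 leukocyte genes. For TmT in TRAMP these medians were 0.83, 0.70, 0.75, 0.57, 0.83, 0.77, 0.41 and 0.21. Pericytes share several contractile genes with smooth muscle, and the 7 pericyte genes ran from Rgs5 at -3.05 to Mcam at 0.92 after oil. For TmT in TRAMP they ran from Abcc9 at -0.50 to Rgs5 at 2.00, with Mcam and Cspg4 also below 0, at -0.28 and -0.10.

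Adipocyte genes went the other way. All 6 that were tested after oil were at least 2-fold higher in TRAMP, where 7.74% of all genes were, with a median of 2.86. All 4 tested for TmT in TRAMP were at least 2-fold lower, where 4.86% of all genes were, with a median of -3.43. Fewer were tested there because not all were well above background on both arrays. Their summed level was 5.45 in C57BL/6 oil, 4.53 in C57BL/6 TmT, 7.96 in TRAMP oil and 4.84 in TRAMP TmT, and Lep was not well above background on any array. The part of these cell types in the smooth muscle values was not tested.

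**Figure D5:**
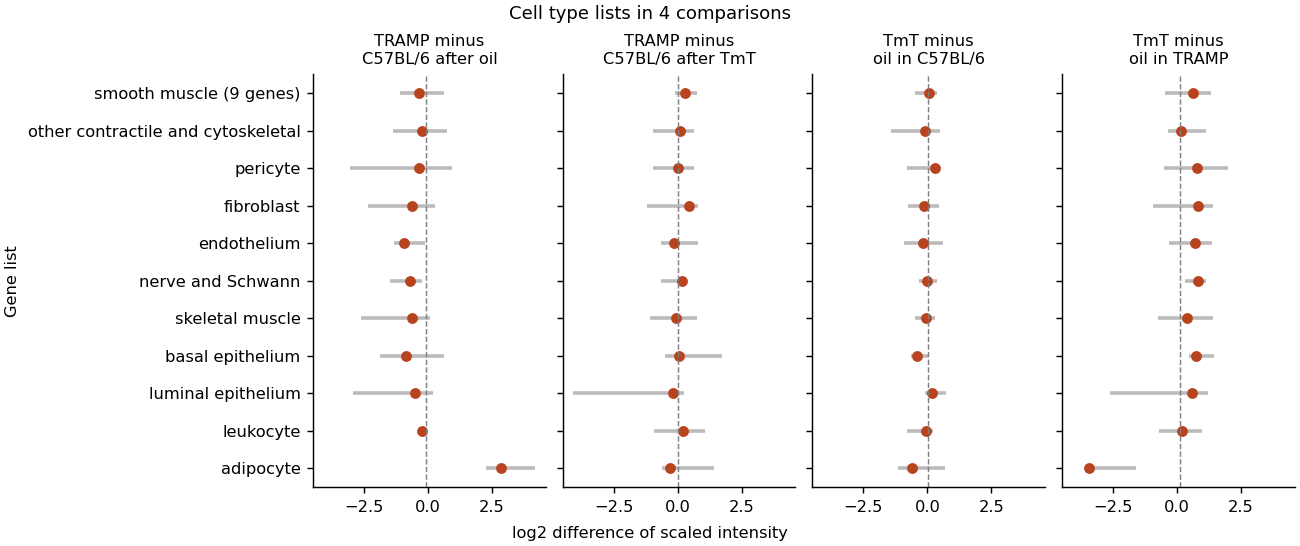
Median difference (log2, dots) of the smooth muscle genes and of each other gene list in the 4 comparisons; bars run from the lowest to the highest gene and the dashed line is the median of all genes tested. For TRAMP after oil the adipocyte list is at 2.86 and the smooth muscle list at -0.35; for TmT in TRAMP they are at -3.43 and 0.63.

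The typical course of the 9 genes over the arrays, the median of their levels after centring each gene on its own mean, was 0.00022, 0.0090, -0.44 and 0.37. The 5 nearest genes by root mean square distance over 4 arrays were Rpl11, Blvrb, Mt3, Igsf10 and 1700023A16Rik, at distances of 0.023 to 0.029, and 254 of 16952 genes lay within 0.1.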

How the data were processed

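The deposited values are the scanner software's processed intensity per spot (Agilent Feature Extraction 10.2.1.3, mm9 probe positions), background-subtracted and, except on the TRAMP TmT array, detrended across the slide, per the file headers. The authors' value table held the same intensity for all 45018 features, within a relative tolerance of 0.0001. The 4 arrays shared 1 slide and 1 scan time.

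Control spots and spots with outlier marks were left out. Intensities were divided by the array's 75th percentile and taken to log2, spots of a probe were averaged, and the brightest probe stood for a gene. Pairs of arrays were compared among genes well above background on both. An additive model of line and treatment was fitted with limma 3.58.1 in R 4.3.3 (19922 genes above background on at least 2 arrays, 1 residual degree of freedom, adjusted p threshold 0.05) and tested on simulated data. With 4 arrays, their number limits the precision.

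The members and gene lists were chosen with earlier results of these data known. All members are named. Of other lists, the text names the first gene, genes at least 2-fold different in the same direction in both comparisons of a term, and the highest or lowest gene of a comparison; of all other genes, the 5 nearest in course. Lep was named after its values were seen. Alternatives covered scaling, background correction, detrending, probe rule, filters and fold threshold. Leaving out rows past 500, and normexp without spots of local background above 100, were added after seeing the data. Probe sequences are those in the scanner files, and no annotation was used to place them in exons. The sequence of 1 member's probe and the separate result of 1 related gene list are not reported here.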

Additional observations from a re-analysis of the deposited data

Results flagged for a closer look

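For 2 genes the TmT difference ran in opposite directions in the 2 lines, each by more than 2 of its spot errors (for Des, standard errors over repeated spots). Mylk, read by its brightest probe, was at -0.48 for TmT minus oil in C57BL/6 and 0.63 in TRAMP. Its second probe had the same signs, at -0.40 ± 0.20 and 0.30 ± 0.20, and did not pass that limit. The dim Mylk probe was above 0 in both lines, at 1.09 and 1.60. Des was at -0.35 in C57BL/6 and 0.53 in TRAMP. With 1 array per group the difference between the lines was not tested.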

How the results depend on the processing

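The median differences of the smooth muscle genes stayed within -0.56 to -0.31 for line after oil, 0.05 to 0.36 for line after TmT, -0.03 to 0.13 for TmT in C57BL/6 and 0.36 to 0.74 for TmT in TRAMP under 9 alternatives, the planned normexp correction left aside. Of these, the authors' value table could not move a median, as it held the same intensities. Dropping the filter on dim probes could not either, as every member was above background on all arrays. Without rows past 500 (8 genes, no Tagln) the median after oil was -0.561. The count of genes at least 2-fold lower after oil, 1 in the report, was 0 after quantile normalization, before detrending, with the mean over probes and at 3-fold. The count 2-fold higher for TmT in TRAMP, 2 in the report, was 1 with the mean over probes and 0 at 3-fold. Under normexp without spots of extreme local background it was 0, with medians of 0.051 for line after TmT and 0.365 for TmT in TRAMP.

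The planned normexp, which took in 27 spots with a local background above 100 on a TmT array, gave medians of -0.395 for line after TmT, -2.155 for TmT in C57BL/6 and -2.573 for TmT in TRAMP. The medians over all genes were then 0.0085, 0.353 and 0.229 in the same order. The planned normexp had 4, 8 and 8 genes 2-fold lower in those comparisons and 1 higher for TmT in TRAMP, where Acta2 was at -4.445 and Cnn1 at -3.621. For TmT over both lines it called 9 genes (limma, lowest adjusted p 0.0074), with Myh11 at -3.516, Mylk at -2.267, Acta2 at -3.376, Lmod1 at -2.292, Cnn1 at -3.054 and Des at -1.949. The shares of all genes past 2-fold or called under this setting are not given here. These counts are therefore not read as a result about the members. Without those 27 spots no member was called. In the 9 other alternatives limma called 0 members for either term, with lowest adjusted p of 0.143 to 0.515 for line and 0.474 to 0.811 for TmT. Among these, the authors' value table could not give another result, as its intensities were the same.

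No paired analysis was possible because each group had 1 array and the labels carry no replicate numbers. No replicate was left out, as each group had a single array.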
